A study of Mus musculus with 8 samples.

Results

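Chemokines are small secreted proteins that direct the movement of immune cells, and they act through G protein-coupled receptors on the cells they attract. Ligands are named by the spacing of their first cysteines (CC, CXC and CX3C), receptors by the ligand class they bind, and atypical receptors (Ackr) bind ligands without signalling through G proteins and so remove, carry or present them. In dorsal root ganglia, which hold the cell bodies of sensory neurons together with glia, vessels and resident macrophages, chemokines of neurons, vessels and glia are known to recruit macrophages and to change neuronal excitability after injury. The family was taken by gene symbol: rows of the count table named Ccl or Cxcl with a number, Ccr or Cxcr with a number, Cx3cl1, or Ackr1 to Ackr4. This gave 62 of 54532 rows, 42 of ligands and 20 of receptors, under 57 distinct symbols. Of the 62 rows, 34 (20 ligands and 14 receptors) passed the filter on low counts and could be tested, 21 had counts but lay below it, and 7 had no count in any library.

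The ganglia came from levels L3-L5 of C57BL/6 mice, and their poly(A) RNA was sequenced in 2 groups. The MIA group (4 libraries) had joint disease induced by injection of monosodium iodoacetate, a glycolysis inhibitor, into the joint and no further treatment. The MIA_Acu group (4 libraries) had the same injection and manual acupuncture at the point ST36 daily for 7 days. The submitters' design text names 3 groups of 3 mice and describes these 2. The age and sex of the mice are not given in the labels. Neither uninjured mice nor mice with sham needling were analysed here. The p-values weigh the difference between groups against the spread of libraries within a group. No label says which animal gave which library, so this may not be the spread between animals. Sensory neuron markers were high in each library (12 genes summed to between 13282 and 20058 counts per 1000000 counts of the library, CPM), as the tissue label implies.

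Library totals were 32892804 to 40627041 counts, and 3 counts in 1 library corresponded to 0.0738 to 0.0913 CPM. The MIA library numbered 4 and the MIA_Acu library numbered 3 carry numbers that no sample title of their group has, so the counts of calls and the results that depend on them are also given for the other 6 libraries, those numbered 1, 2 and 5. The library MIA_Acu 3 stood apart in tissue content. Its 10 bone and cartilage markers summed to 703 CPM against 28.8 to 81.4 CPM in the other libraries, and its 10 granulocyte markers to 1103 CPM against 218 to 639 CPM. MIA_Acu 2 and MIA_Acu 5 stood apart in 9 markers of spinal cord glia. These summed to 321 and 367 CPM there, against 26.8 to 109 CPM in the other libraries. Sensory neuron markers summed to less in each MIA_Acu library (13282 to 15309 CPM) than in each MIA library (15399 to 20058 CPM), and blood endothelial markers to more (372 to 486 against 247 to 323 CPM). In bulk RNA, fewer cells of a type and less RNA per cell cannot be told apart, and the part of tissue content in the differences below was not tested.

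Promoter sequences are shown for the ligands on which the results turn: Cx3cl1, Cxcl14 and Cxcl12, which had the smallest p-values among ligands that act in resting tissue, and Cxcl10, an interferon-induced ligand whose groups overlapped. Each is the RefSeq window (build GRCm38.p6) from 250 bases before to 50 bases after the gene's start, 5′ to 3′ on the gene's strand. Capitals mark matches, on either strand, to the kappaB consensus, the core of the interferon-stimulated response element (ISRE), TTCNNNGAA, TGANTCA or TATAAA.
Cx3cl1 (chr8:94771930-94772229, plus strand): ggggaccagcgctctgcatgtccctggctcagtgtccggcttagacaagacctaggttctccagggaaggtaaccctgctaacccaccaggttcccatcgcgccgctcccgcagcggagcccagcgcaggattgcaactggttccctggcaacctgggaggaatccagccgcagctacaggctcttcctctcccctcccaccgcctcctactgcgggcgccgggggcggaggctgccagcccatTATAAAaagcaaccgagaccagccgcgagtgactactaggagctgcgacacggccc
Cxcl14 (chr13:56296502-56296801, minus strand): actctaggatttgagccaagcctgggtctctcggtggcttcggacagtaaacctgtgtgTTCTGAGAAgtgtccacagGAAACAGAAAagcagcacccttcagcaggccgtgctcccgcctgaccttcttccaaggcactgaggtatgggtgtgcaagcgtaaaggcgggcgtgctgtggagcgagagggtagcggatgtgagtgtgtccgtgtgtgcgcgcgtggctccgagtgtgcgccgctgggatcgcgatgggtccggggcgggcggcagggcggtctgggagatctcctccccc
Cxcl12 (chr6:117168285-117168584, plus strand): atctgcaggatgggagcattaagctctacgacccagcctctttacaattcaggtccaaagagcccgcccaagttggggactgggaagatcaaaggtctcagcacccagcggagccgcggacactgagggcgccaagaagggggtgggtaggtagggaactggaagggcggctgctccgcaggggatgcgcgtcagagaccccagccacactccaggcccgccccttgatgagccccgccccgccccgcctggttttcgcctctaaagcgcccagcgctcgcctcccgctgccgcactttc
Cxcl10 (chr5:92348840-92349139, minus strand): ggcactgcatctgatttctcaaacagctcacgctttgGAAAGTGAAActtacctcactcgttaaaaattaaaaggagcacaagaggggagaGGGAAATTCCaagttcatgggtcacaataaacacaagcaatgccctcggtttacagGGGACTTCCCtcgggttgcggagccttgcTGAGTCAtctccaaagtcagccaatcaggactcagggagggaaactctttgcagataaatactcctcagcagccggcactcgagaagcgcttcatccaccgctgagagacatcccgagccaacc

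The Cxcl10 window holds 2 kappaB matches, which start 159 and 103 bases before the start, besides 1 ISRE core and 1 TGANTCA match, none of which overlap. The Cx3cl1 window holds 1 TATAAA, the Cxcl14 window 1 TTCNNNGAA and 1 ISRE core, and the Cxcl12 window no match to these letters. The windows of Cx3cl1, Cxcl12 and Cxcl14 hold 19, 20 and 22 CpG dinucleotides and that of Cxcl10 holds 10, against a median of 7 over 32851 windows of this length. Of the 34 tested members, 25 had a window. A kappaB match was found in windows of 6 of these 25 (24%) and of 5.14% of all 27025 genes, and TATAAA in 9 of 25 (36%) against 15.7%. ISRE core was found in 2 of 25 (8%) against 3.99%, TTCNNNGAA in 1 of 25 (4%) against 9.55%, and TGANTCA in 6 of 25 (24%) against 8.97%. These matches describe the letters and do not show that a factor binds there.

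Levels of the measurable members spanned from Ackr1 at the top to Ccr9 at the bottom when scaled to exon length. Ackr1, the atypical receptor that binds many CC and CXC ligands on venules, averaged 43.2 CPM per kilobase over the 8 libraries. Cxcl12, the ligand that retains and guides leukocytes and progenitors, averaged 12.5 CPM per kilobase, Ccl11 (eotaxin, which attracts eosinophils) 11.3, and Cxcr4 (the signalling receptor of Cxcl12) 11.3. The values of these last 3 overlapped between libraries, so their order was not resolved. Then came Ccl27a at 5.58, Ccl6 at 4.05, Ackr3 at 2.80, Ccr2 at 2.36, Cx3cl1 at 2.22 and Cxcl14 at 1.92 CPM per kilobase. At the low end, Ccr9 averaged 0.0452 and Ccr7 0.127 CPM per kilobase. Of the 34 members, 19 had a mean of at least 100 counts per library and 9 a mean under 30. Within groups the coefficient of variation of CPM had a median over members of 27.6% in MIA and 44.3% in MIA_Acu, and it ran from 5.16% (Ccl27a in MIA_Acu) to 126% (Ackr4 in MIA_Acu).

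**Figure D1:**
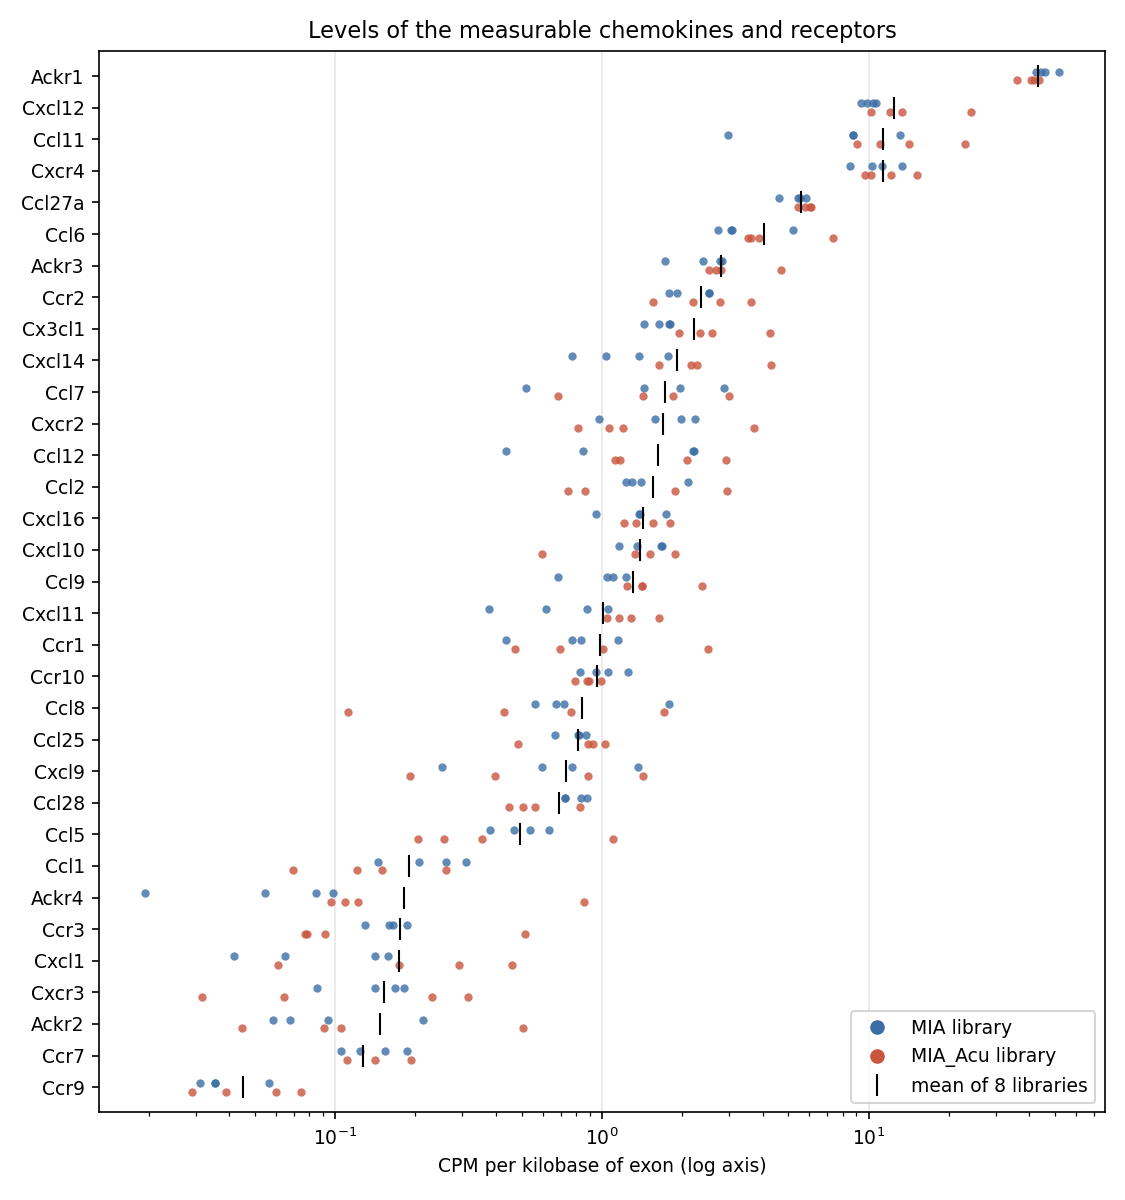
Level of 33 of the 34 measurable members in CPM per kilobase of exon (log axis), with 1 point for each MIA (blue) or MIA_Acu (red) library and a black tick at the mean of 8 libraries; Ccr7 in MIA_Acu 1, at 0 counts, cannot be drawn on the log axis. Ackr1 lies highest at a mean of 43.2 and Ccr9 lowest at 0.0452, and the groups overlap for nearly all members.

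Some of these levels may include reads of other genes, since exons overlap in the GRCm38 annotation and the strand setting of the counting is not given in the sources used here. Exons of Ackr1 overlap, on the same strand, those of Cadm3, a neuronal adhesion gene at 710 ± 44.7 CPM among MIA libraries and 670 ± 77.3 CPM among MIA_Acu libraries (SD, n = 4). Ccl27a overlaps Il11ra1 on the other strand (18.8 ± 3.3 and 25.7 ± 2.03 CPM, SD, n = 4), and Cxcl10 overlaps Art3 (142 ± 32.2 and 200 ± 34.4 CPM, SD, n = 4). Ccl25 overlaps Elavl1 on the other strand (45.7 ± 2.16 and 51.7 ± 2.46 CPM, SD, n = 4). Other partners on the other strand are Zmynd15 for Cxcl16, Acad11 for Ackr4 and Slc6a20a for Ccr9. The levels of these members are therefore uncertain.

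In the comparison of MIA_Acu with MIA, which asks whether the ligands and receptors of immune cell traffic differ after acupuncture, no member passed the threshold in 8 libraries. On average, 25 of the 34 members were higher in MIA_Acu (73.5%, against 52.9% of all tested genes), with a median log2 fold change of 0.19 against 0.02 over all 18971 tested genes. In edgeR 0 of 34 members had an adjusted p under 0.05 (smallest 0.127, for Cx3cl1), where 0% of all genes passed. DESeq2 called 2 of the 34 members, Cx3cl1 and Cxcl14, where it called 9.24% of all tested genes. It gave no adjusted p to Ackr2, Ackr4, Ccl1, Ccl2, Ccl5, Ccl7, Ccl8, Ccl12, Ccr3, Ccr7, Ccr9, Ccr10, Cxcl1 and Cxcr3. These members had low counts and could not be called, so the 2 calls came from the remaining members. At an unadjusted p under 0.05 there were 6 members (17.6%), all higher, namely Cx3cl1, Cxcl14, Ackr4, Cxcl11, Ccl9 and Cxcl12, where 21.8% of all genes reached it (11.2% higher and 10.6% lower). The share is near that of all genes and is no result about the family.

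In the 6 libraries, 17 of 32 tested members were higher in MIA_Acu (53.1%, against 49.7% of all genes), with a median log2 fold change of 0.09 against -0.003 over all genes. Cx3cl1 alone passed, 1 of 32 members (3.12%) where 10.4% of 18941 genes did. In 8 members the unadjusted p was under 0.05 (25%, against 27.8% of all genes), 5 higher (14.5% of all genes) and 3 lower (13.3% of all genes). The higher ones were Cx3cl1, Cxcl14, Cxcl11, Ccl11 and Cxcl12, and the lower ones Ccr3, Cxcr2 and Ackr1, the last at 0.05 on rounding. Groups of 10 members did not overlap (31.2%, against 32.9% of all genes), 7 higher (17.6% of all genes) and 3 lower (15.4%). For 7 members, Ccl6, Ccr1, Ackr2, Cxcr4, Ccr3, Ccl25 and Cxcr2, the log2 fold change had another sign than in 8 libraries.

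**Figure D2:**
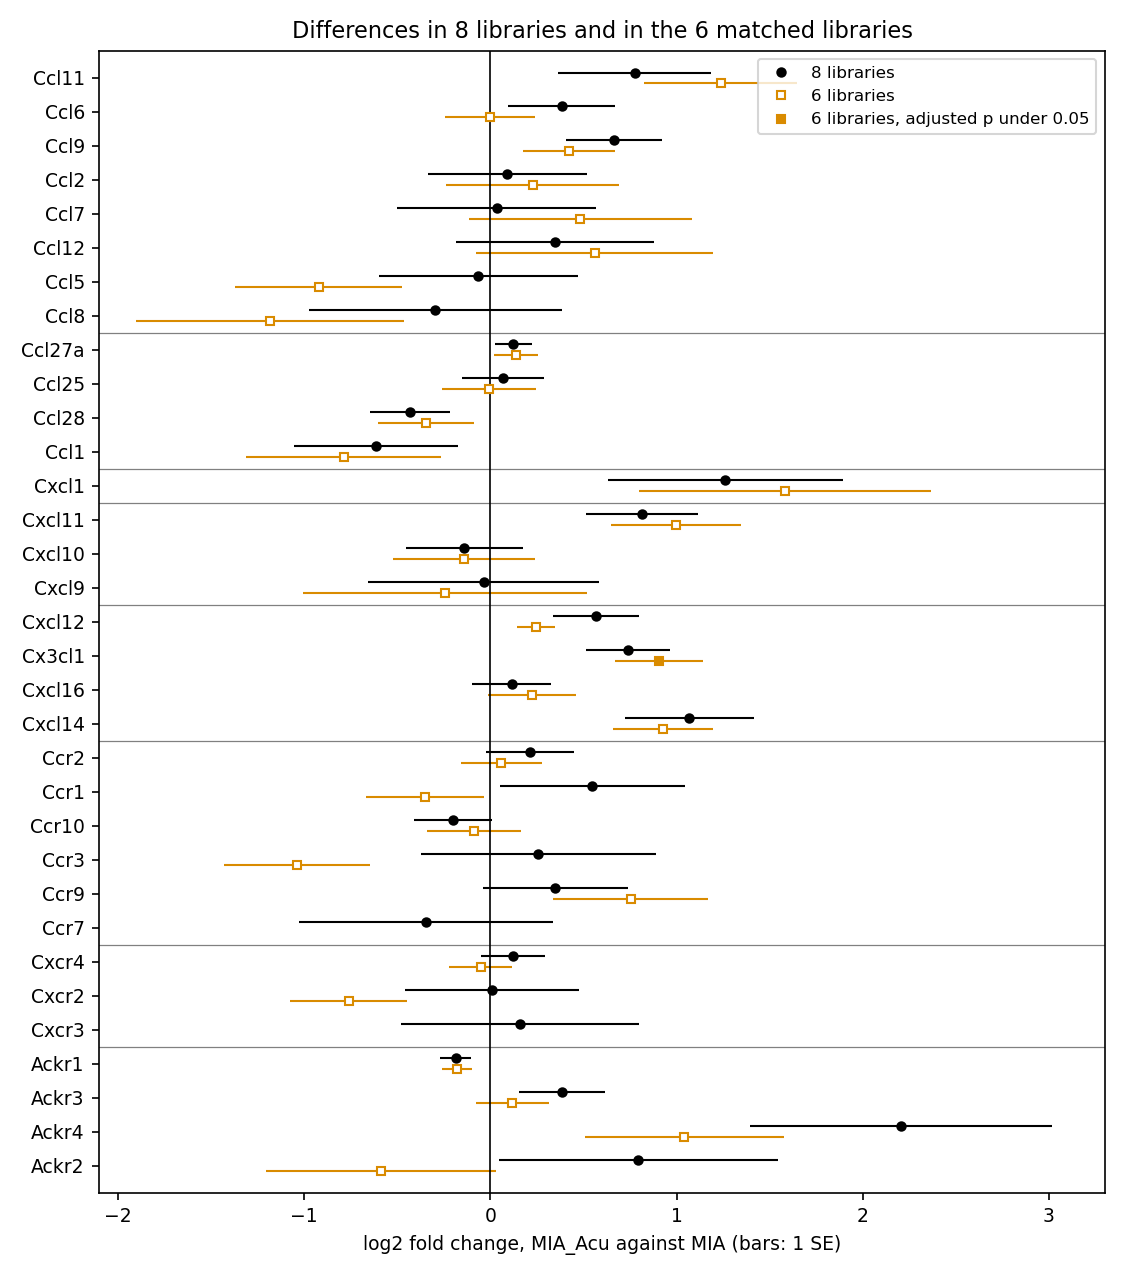
Log2 fold change of MIA_Acu against MIA for 33 of the 34 members, ordered by role, with bars of 1 SE; circles are from 8 libraries and squares from the 6 libraries numbered 1, 2 and 5, where 31 of those drawn were tested, and a filled square marks an adjusted p under 0.05. The filled square is Cx3cl1 at 0.91, and Ccr3, Cxcr2, Ccr1 and Ackr2 lie on opposite sides of 0 in the 2 sets of libraries.

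Cx3cl1 (fractalkine, ENSMUSG00000031778), a membrane-bound ligand of neurons and endothelium that is shed to act on macrophages, was at 6.42, 5.66, 7.02 and 7.06 CPM in the MIA libraries numbered 1, 2, 4 and 5. In the MIA_Acu libraries numbered 1, 2, 3 and 5 it was at 10.2, 9.14, 7.67 and 16.7 CPM. Each MIA_Acu library lay above each MIA library, and MIA_Acu 5 lay highest. Group means were 6.54 ± 0.654 and 10.9 ± 3.99 CPM (SD, n = 4), and the log2 fold change was 0.74 (SE 0.23, adjusted p = 0.127). With the groups of MIA 4 and MIA_Acu 3 exchanged, as the sample titles would have their numbers, it was 0.68 (adjusted p = 0.188), and the groups overlapped. In the 6 libraries Cx3cl1 rose, with log2 fold change 0.91 (SE 0.23, adjusted p = 0.0462). Endothelial markers, of one source of Cx3cl1, were higher in each MIA_Acu library and neuronal markers, of the other, lower, as given above. Spinal cord glia markers were highest in MIA_Acu 5, as was Cx3cl1, and next highest in MIA_Acu 2, where Cx3cl1 lay below MIA_Acu 1. The part of all these markers in the call was not tested. The call ended when MIA 1, MIA 2, MIA 5, MIA_Acu 2 or MIA_Acu 5 was left out (adjusted p of 0.110, 0.139, 0.0836, 0.0827 and 0.0954) and held without MIA_Acu 1 (0.0431). It was also lost with voom, without and with sample weights (adjusted p of 0.0620 and 0.0561), and held with DESeq2 (0.00158). Groups of only 2 of 34 members did not overlap, Cx3cl1 and Ccl9, both higher in MIA_Acu, where 4.95% of all genes were higher without overlap and 5.91% lower.

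Its receptor Cx3cr1, carried by macrophages and outside the symbol rule, was at 10.5, 5.40, 9.37 and 6.66 CPM in the MIA libraries and 11.2, 15.1, 11.3 and 8.41 CPM in the MIA_Acu libraries. The groups overlapped through MIA_Acu 5, the library in which the ligand was highest. The log2 fold change was 0.53 (SE 0.24, adjusted p = 0.229) and in the 6 libraries 0.62 (SE 0.28, adjusted p = 0.203). Of the sheddases of Cx3cl1, Adam17 was at 48.3 ± 9.47 CPM among MIA libraries and 71.1 ± 2.73 CPM among MIA_Acu libraries (SD, n = 4, adjusted p = 0.0881). It rose in the 6 libraries with log2 fold change 0.68 (SE 0.12, adjusted p = 0.0189). Adam10 was at 310 ± 109 and 488 ± 102 CPM (SD, n = 4, adjusted p = 0.172) and rose in the 6 libraries with log2 fold change 1.03 (SE 0.16, adjusted p = 0.0185). Both sheddases cut many other membrane proteins. Markers of myelinating Schwann cells were also higher in MIA_Acu on average. They summed to 13951, 6723, 24104 and 15316 CPM in the MIA libraries and to 35224, 36550, 20323 and 38463 CPM in the MIA_Acu libraries, and 10 of 10 rose in the 6 libraries. Adam10 was likewise lowest in MIA 2 (193 CPM) and lower in MIA_Acu 3 (338 CPM) than in MIA 4 (455 CPM). Adam17 was lowest in MIA 2 too (37.8 CPM) but higher in MIA_Acu 3 (68.2 CPM) than in MIA 4 (58.8 CPM). The part of Schwann cell content in the calls was not tested.

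Cxcl14 (ENSMUSG00000021508), a conserved ligand of epithelia and stroma, was at 1.89, 1.41, 3.25 and 2.51 CPM in the MIA libraries. In the MIA_Acu libraries it was at 3.00, 4.17, 7.89 and 3.94 CPM. MIA_Acu 1 lay below MIA 4, so the groups overlapped through MIA 4, and MIA_Acu 3 lay highest. The log2 fold change was 1.07 (SE 0.35, adjusted p = 0.140) and without MIA_Acu 3 it was 0.70 (adjusted p = 0.193). With the groups of MIA 4 and MIA_Acu 3 exchanged, as the sample titles would have their numbers, it was 0.067 (adjusted p = 0.961). In the 6 libraries it was 0.93 (SE 0.27, adjusted p = 0.0649). DESeq2 and voom with sample weights called Cxcl14 in 8 libraries (adjusted p = 0.0280 and 0.0469).

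Of the ligands of resting tissue in the CXC and CX3C classes, 4 of 6 could be tested, and all 4 were higher in MIA_Acu on average, as were 52.9% of all genes (median log2 fold change 0.65, against 0.02 over all genes). Of these, 3 had an unadjusted p under 0.05, where 11.2% of all genes were higher at that p. Cxcl12 (ENSMUSG00000061353) made up 48.8% to 67.9% of the summed CPM of all ligands in a library. It was at 76.5, 87.0, 85.1 and 80.4 CPM in the MIA libraries and at 109, 98.3, 197 and 83.5 CPM in the MIA_Acu libraries. MIA_Acu 3 lay far above the others of its group, and MIA_Acu 5 lay within the MIA range. The summed CPM of all ligands was 148, 139, 165 and 156 in MIA libraries against 185, 202, 290 and 168 in MIA_Acu libraries, without overlap. Without Cxcl12 the sums were 71.2, 51.7, 79.7 and 75.6 against 76.4, 103, 93.3 and 84.3 CPM, and the groups overlapped. Means of Cxcl12 were 82.2 ± 4.73 and 122 ± 51.2 CPM (SD, n = 4), and the log2 fold change was 0.57 (SE 0.23, adjusted p = 0.196). It was 0.23 without MIA_Acu 3 (adjusted p = 0.194) and 0.25 in the 6 libraries (SE 0.10, adjusted p = 0.160), and -0.23 with the groups of MIA 4 and MIA_Acu 3 exchanged (adjusted p = 0.700). Fibroblast markers, which include genes of stromal cells known to make Cxcl12, summed to 653 to 1982 CPM in MIA and 2309 to 6279 CPM in MIA_Acu, with MIA_Acu 3 highest. Most of that highest sum was Col1a1 (2001 CPM) and Col1a2 (2533 CPM). Pi16, Dpt, Col6a1 and Fn1 were also highest in MIA_Acu 3, but Col3a1, Pdgfra, Dcn and Lum were highest in MIA_Acu 2. Bone and cartilage markers were highest in MIA_Acu 3 too (703 CPM), and the part of either list in Cxcl12 was not tested. All 10 fibroblast markers were higher in MIA_Acu on average, with none at 0 in any library. None of the 10 passed the threshold in 8 libraries and 1 did in the 6.

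No receptor of Cxcl12 passed the threshold. Cxcr4 (ENSMUSG00000045382) was at 15.3, 20.2, 18.7 and 24.2 CPM in the MIA libraries and 22.0, 17.4, 27.4 and 18.5 CPM in the MIA_Acu libraries. The groups overlapped widely, and their log2 fold change was 0.12 (SE 0.17, adjusted p = 0.720). Ackr3, a scavenger of Cxcl12 and Cxcl11, was at 9.32, 5.79, 8.02 and 9.44 CPM in MIA against 8.42, 9.37, 15.8 and 8.98 CPM in MIA_Acu. Only MIA_Acu 3 lay above the MIA range, and the log2 fold change was 0.38 in 8 libraries (SE 0.23, adjusted p = 0.356) and 0.13 without that library (adjusted p = 0.718). Cxcl16, a transmembrane ligand of macrophages and endothelium, was at 4.12 ± 0.974 and 4.46 ± 0.780 CPM (SD, n = 4, log2 fold change 0.12, SE 0.21, adjusted p = 0.792). Its receptor Cxcr6, a receptor of T and NK cells, lay below the filter with 16, 6, 22 and 17 counts in the MIA libraries against 6, 5, 0 and 4 counts in the MIA_Acu libraries.

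**Figure D3:**
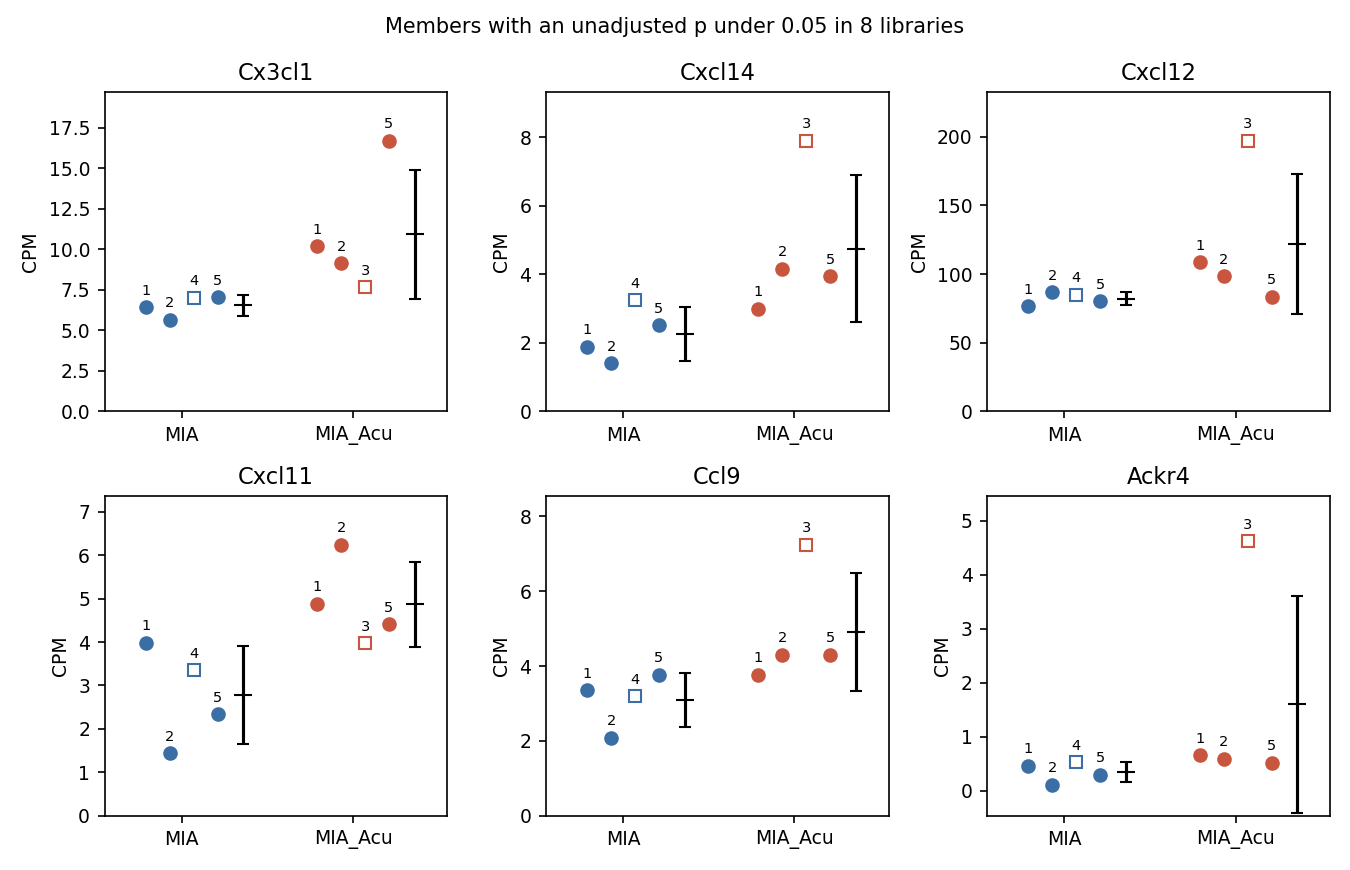
CPM of the 6 members with an unadjusted p under 0.05 in 8 libraries, by group; each point is a library marked with its number, open squares are the libraries whose number matches no sample title, and the bar is the group mean with 1 SD (n = 4). For Cxcl14, Cxcl12, Ccl9 and Ackr4 the highest point is MIA_Acu 3 (197 CPM for Cxcl12), and for Cx3cl1 it is MIA_Acu 5 at 16.7 CPM.

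The interferon-induced ligands Cxcl9, Cxcl10 and Cxcl11 all bind Cxcr3 on T cells, and C57BL/6 mice are known to carry a frameshift in Cxcl11. Cxcl11 (ENSMUSG00000060183) was at 3.99, 1.43, 3.35 and 2.34 CPM in the MIA libraries and 4.88, 6.24, 3.97 and 4.41 CPM in the MIA_Acu libraries. The groups overlapped by a narrow margin, MIA 1 at 3.99 and MIA_Acu 3 at 3.97 CPM, and the log2 fold change was 0.81 (SE 0.30, adjusted p = 0.169). Cxcl10 was at 3.04, 2.61, 3.77 and 3.74 CPM in MIA against 3.00, 4.22, 3.40 and 1.34 CPM in MIA_Acu (log2 fold change -0.14, SE 0.31, adjusted p = 0.835). Cxcl9 was at 4.11, 0.757, 1.79 and 2.34 CPM and at 1.20, 4.31, 2.67 and 0.575 CPM (log2 fold change -0.04, SE 0.62, adjusted p = 0.980). Neither separated the groups, and MIA_Acu 2 was highest and MIA_Acu 5 lower than all MIA libraries for both. Cxcr3 itself was at 0.249 ± 0.0733 and 0.278 ± 0.233 CPM (SD, n = 4, adjusted p = 0.911), and markers of T and NK cells summed to 4.55 to 7.25 CPM in MIA and 4.77 to 9.82 CPM in MIA_Acu.

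Inflammatory CC ligands attract monocytes, eosinophils and lymphocytes, and 8 of 12 could be tested, of which 6 were higher in MIA_Acu on average and none passed in 8 or 6 libraries. Ccl9 (ENSMUSG00000019122), a ligand of Ccr1 found in rodents, was at 3.35, 2.09, 3.19 and 3.76 CPM in the MIA libraries and 3.77, 4.31, 7.24 and 4.30 CPM in the MIA_Acu libraries. The groups did not overlap, by a narrow margin between MIA 5 and MIA_Acu 1, and the log2 fold change was 0.66 (SE 0.26, adjusted p = 0.185) and 0.41 without MIA_Acu 3 (adjusted p = 0.305). Ccl6, another Ccr1 ligand of rodents, was at 4.87, 5.53, 5.49 and 9.32 CPM and at 6.96, 6.51, 13.1 and 6.33 CPM. Its highest libraries were MIA_Acu 3 and MIA 5, the 2 with the highest granulocyte marker sums (1103 and 639 CPM), and its log2 fold change was 0.38 (SE 0.29, adjusted p = 0.467) in 8 libraries and -0.003 in the 6.

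Ccl11 (ENSMUSG00000020676) was at 9.44, 3.21, 14.1 and 9.42 CPM in the MIA libraries and 12, 24.9, 9.82 and 15.3 CPM in the MIA_Acu libraries. MIA 2 was lowest and MIA_Acu 2 highest, and the groups overlapped through MIA 4. The log2 fold change was 0.78 (SE 0.41, adjusted p = 0.301) and in the 6 libraries 1.24 (SE 0.41, adjusted p = 0.0942). Its receptor Ccr3, of eosinophils, was at 0.609, 0.522, 0.422 and 0.541 CPM in MIA against 0.257, 0.252, 1.69 and 0.301 CPM in MIA_Acu. Without MIA_Acu 3 each MIA_Acu library lay below each MIA library. The log2 fold change was accordingly 0.26 in 8 libraries (SE 0.63, adjusted p = 0.848), -0.95 without MIA_Acu 3 (adjusted p = 0.174) and -1.04 in the 6 libraries (SE 0.39, adjusted p = 0.130).

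Ccl2, the main monocyte attractant and a ligand known to excite sensory neurons, was at 1.40, 1.59, 1.48 and 2.39 CPM in the MIA libraries and 2.14, 3.36, 0.980 and 0.849 CPM in the MIA_Acu libraries. The MIA_Acu libraries lay on both sides of the MIA range, and the log2 fold change was 0.09 (SE 0.43, adjusted p = 0.925). The other ligands of Ccr2, Ccl7 and Ccl12, also overlapped widely between groups. Ccl7 averaged 1.36 ± 0.785 CPM in MIA and 1.39 ± 0.776 CPM in MIA_Acu, and Ccl12 averaged 0.765 ± 0.492 and 0.978 ± 0.458 CPM (SD, n = 4). The receptor Ccr2 (ENSMUSG00000049103), of monocytes, was at 17, 12.9, 17.1 and 12.1 CPM in MIA against 14.8, 18.7, 24.5 and 10.5 CPM in MIA_Acu. MIA_Acu 3 was highest and MIA_Acu 5 lowest of the 8, and the log2 fold change was 0.21 (SE 0.24, adjusted p = 0.636). Summed markers of macrophages ran from 231 to 289 CPM in MIA and 233 to 486 CPM in MIA_Acu, with MIA_Acu 3 highest. Lyz2 alone was at 266 CPM in MIA_Acu 3, the library with the highest granulocyte sum. Cd68, Aif1, Itgam, Fcgr1 and Mpeg1 were also highest there. Adgre1, Csf1r, C1qa, C1qb, C1qc, Mrc1, Cd163 and Cd14 were highest in MIA_Acu 2. All 14 macrophage markers were higher in MIA_Acu on average and none was at 0, but none of the 14 passed the threshold in 8 or 6 libraries.

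Of the CC receptors, 7 of 10 could be tested, and 5 of these were higher in MIA_Acu on average in 8 libraries and 3 of 6 in the 6 libraries. None passed the threshold in either set. Ccl5, an attractant of T cells and monocytes, was at 0.609, 0.365, 0.449 and 0.516 CPM and at 0.342, 0.196, 1.06 and 0.246 CPM (log2 fold change -0.06, SE 0.53, adjusted p = 0.957). Without MIA_Acu 3 the log2 fold change of Ccl5 was -0.89 (adjusted p = 0.237). Ccl8, a ligand of Ccr8 in mice, was at 0.478 ± 0.292 CPM among MIA libraries and 0.385 ± 0.352 CPM among MIA_Acu libraries (SD, n = 4, log2 fold change -0.29, SE 0.68, adjusted p = 0.838).

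Ligands of neutrophils were scarce. Cxcl1, which acts on Cxcr2, had 4, 3, 10 and 12 counts in the MIA libraries against 4, 31, 12 and 20 in the MIA_Acu libraries, or 0.190 ± 0.106 and 0.464 ± 0.322 CPM (SD, n = 4, log2 fold change 1.26, SE 0.63, adjusted p = 0.275). Cxcl5 and Cxcl2 totalled 76 and 29 counts over the 8 libraries, below the filter, and Cxcl3 and Cxcl15 had none, which allows up to 0.0913 CPM in the shallowest library on counting error alone. Their receptor Cxcr2, carried by neutrophils, was at 2.98, 6.03, 4.80 and 6.79 CPM in MIA against 3.25, 2.49, 11.4 and 3.64 CPM in MIA_Acu. The MIA_Acu libraries other than MIA_Acu 3 lay at 2.49 to 3.64 CPM, and the lowest of them, MIA_Acu 2, lay below the MIA range. The log2 fold change was 0.01 in 8 libraries (SE 0.47, adjusted p = 0.992) and -0.76 in the 6 (SE 0.31, adjusted p = 0.158). Granulocyte markers summed to 323, 571, 394 and 639 CPM in the MIA libraries and 392, 218, 1103 and 324 CPM in the MIA_Acu libraries, so MIA_Acu 3 and then MIA 5 were highest in both. Cxcr1 totalled 20 counts.

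**Figure D4:**
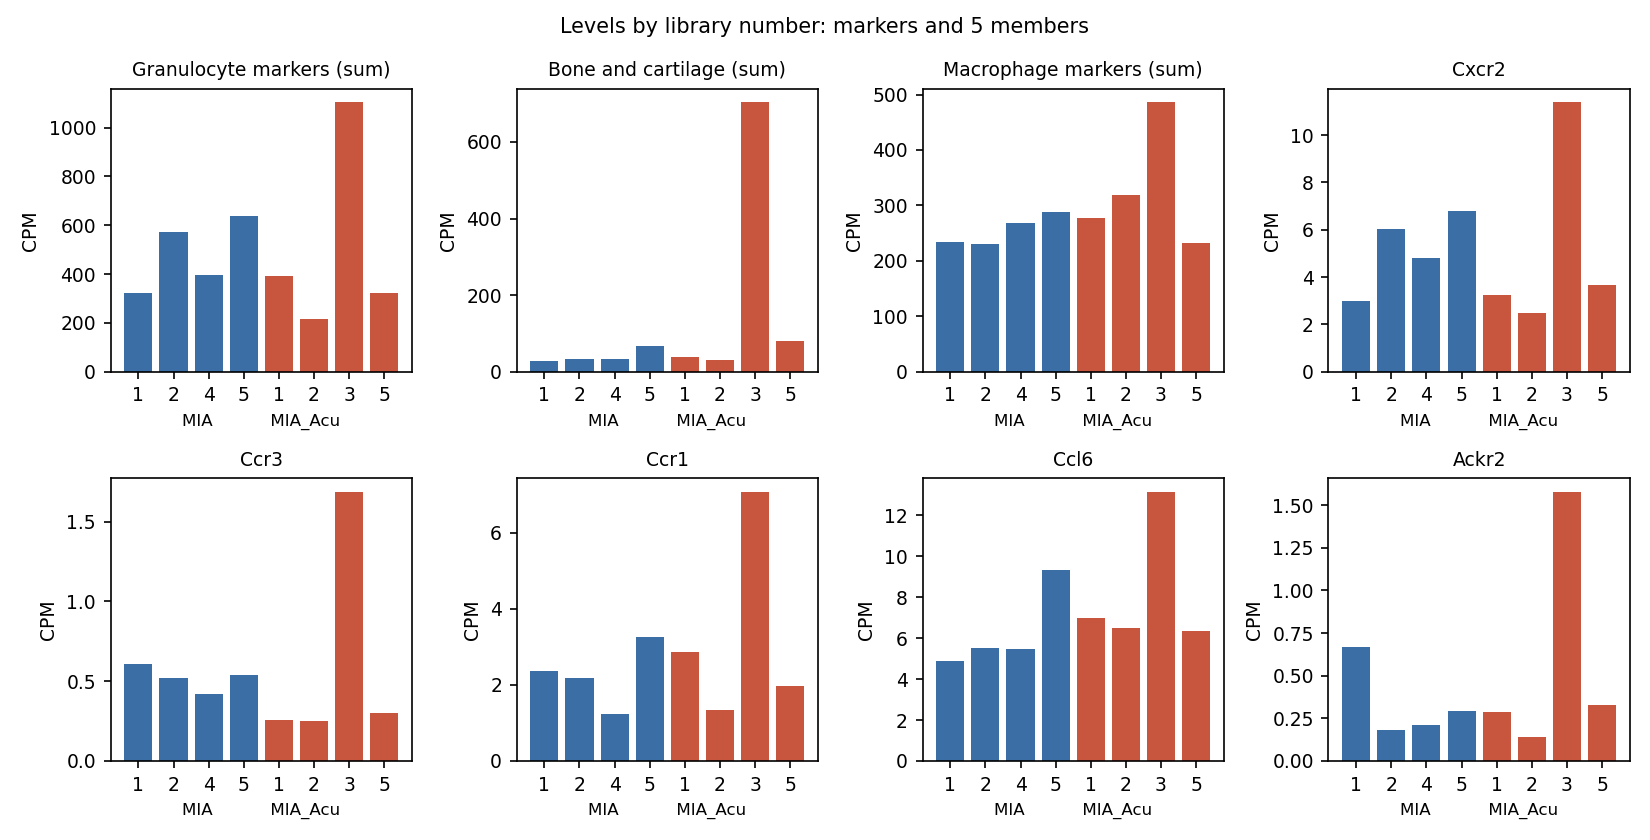
Levels in CPM by library (MIA in blue, MIA_Acu in red, library number below each bar) of 3 summed marker lists and of Cxcr2, Ccr3, Ccr1, Ccl6 and Ackr2, which were chosen for this plot after their values were seen. In each panel the tallest bar is MIA_Acu 3, for example 11.4 CPM of Cxcr2 and 703 CPM of bone and cartilage markers.

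Ccr1, a receptor of monocytes and neutrophils for Ccl6 and Ccl9, was at 2.37, 2.19, 1.24 and 3.25 CPM in the MIA libraries and 2.85, 1.34, 7.08 and 1.97 CPM in the MIA_Acu libraries. MIA_Acu 3 lay far above the others, which spanned the same range in both groups. The log2 fold change was 0.55 (SE 0.50, adjusted p = 0.552), and -0.15 without MIA_Acu 3 (adjusted p = 0.849).

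Of the CC ligands of resting tissue 4 of 16 could be tested, 2 higher and 2 lower in MIA_Acu on average. Ccl28, a mucosal ligand of Ccr10, was at 4.26, 3.52, 4.04 and 3.52 CPM in MIA against 2.71, 2.18, 2.45 and 4.03 CPM in MIA_Acu. The MIA_Acu libraries except MIA_Acu 5 lay below the MIA range, and the log2 fold change was -0.43 (SE 0.22, adjusted p = 0.274). Ccl27a (ENSMUSG00000073888), a skin-homing ligand of the same receptor, was at 12.9, 10.9, 13.8 and 13.1 CPM and at 14.3, 13.8, 14.5 and 12.9 CPM (log2 fold change 0.12, SE 0.10, adjusted p = 0.500). It had the smallest spread of the members in MIA_Acu, and the groups overlapped. Ccr10 was at 1.77 ± 0.312 and 1.54 ± 0.140 CPM (SD, n = 4, adjusted p = 0.615). Ccl25, which guides T cells to thymus and gut, was at 5.91 ± 0.649 and 6.19 ± 1.77 CPM, and its receptor Ccr9 at 0.408 ± 0.117 and 0.520 ± 0.211 CPM (SD, n = 4, adjusted p = 0.890 and 0.637). Ccl1, a ligand of Ccr8, was at 0.544 ± 0.167 and 0.355 ± 0.191 CPM (SD, n = 4, log2 fold change -0.62, SE 0.44, adjusted p = 0.444).

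The lymph node system of Ccl19, Ccl21 and Ccr7 was at the limit of detection. Ccr7, which brings dendritic cells and T cells to lymph nodes, had 10, 8, 14 and 10 counts in the MIA libraries against 0, 10, 14 and 8 in the MIA_Acu libraries (adjusted p = 0.808), and it lay below the filter in the 6 libraries. Both rows named Ccl19 had no count, and the 2 rows of Ccl21a and 2 of Ccl21b held at most 8 counts in a library. These symbols, like Ccl27a with 3 rows and Ccl27b, belong to near-identical copies between which reads can be lost or shared. The second row of Ccl27a (ENSMUSG00000095247) had 56 of its 80 counts in MIA 2.

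The atypical receptors held the highest level per kilobase (Ackr1) and the largest spread (Ackr4), and 3 of 4 were higher in MIA_Acu on average in 8 libraries and 2 of 4 in the 6. Ackr1 (ENSMUSG00000037872) was at 62.1, 72.6, 59.3 and 64.3 CPM in the MIA libraries and 58.5, 61.1, 50.6 and 57.0 CPM in the MIA_Acu libraries. The groups overlapped through MIA 4 and MIA_Acu 2, and the log2 fold change was -0.19 (SE 0.08, adjusted p = 0.232) and in the 6 libraries -0.18 (SE 0.08, adjusted p = 0.180). Cadm3, with which its exons overlap, had log2 fold change -0.08 (SE 0.10, adjusted p = 0.650). Ackr4, a scavenger of Ccl19, Ccl21 and Ccl25, was at 0.457, 0.104, 0.528 and 0.295 CPM in MIA against 0.656, 0.587, 4.63 and 0.520 CPM in MIA_Acu. MIA_Acu 3 held the bulk of its counts (170), and the log2 fold change of 2.21 (SE 0.81, adjusted p = 0.169) was 0.76 without that library (adjusted p = 0.410). Ackr2, a scavenger of inflammatory CC ligands, was at 0.670, 0.183, 0.211 and 0.295 CPM and at 0.285, 0.140, 1.58 and 0.329 CPM, with log2 fold changes of 0.79 in 8 libraries (SE 0.75, adjusted p = 0.569) and -0.59 in the 6 (SE 0.62, adjusted p = 0.587).

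Members were not spread evenly over the libraries. MIA_Acu 3 held the highest value of the 8 libraries for 17 of 34 members (50%), where it held it for 17.4% of all tested genes, and MIA_Acu 2 for 10 (29.4%, against 13.6%). MIA 2 held the lowest value for 13 members (38.2%, against 21.6%). MIA 2 also had the lowest sum of fibroblast markers (653 CPM) and of skeletal muscle markers (37.8 CPM, against 408 to 5892 CPM in the other libraries), and the part of tissue content in this pattern was not tested.

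**Figure D5:**
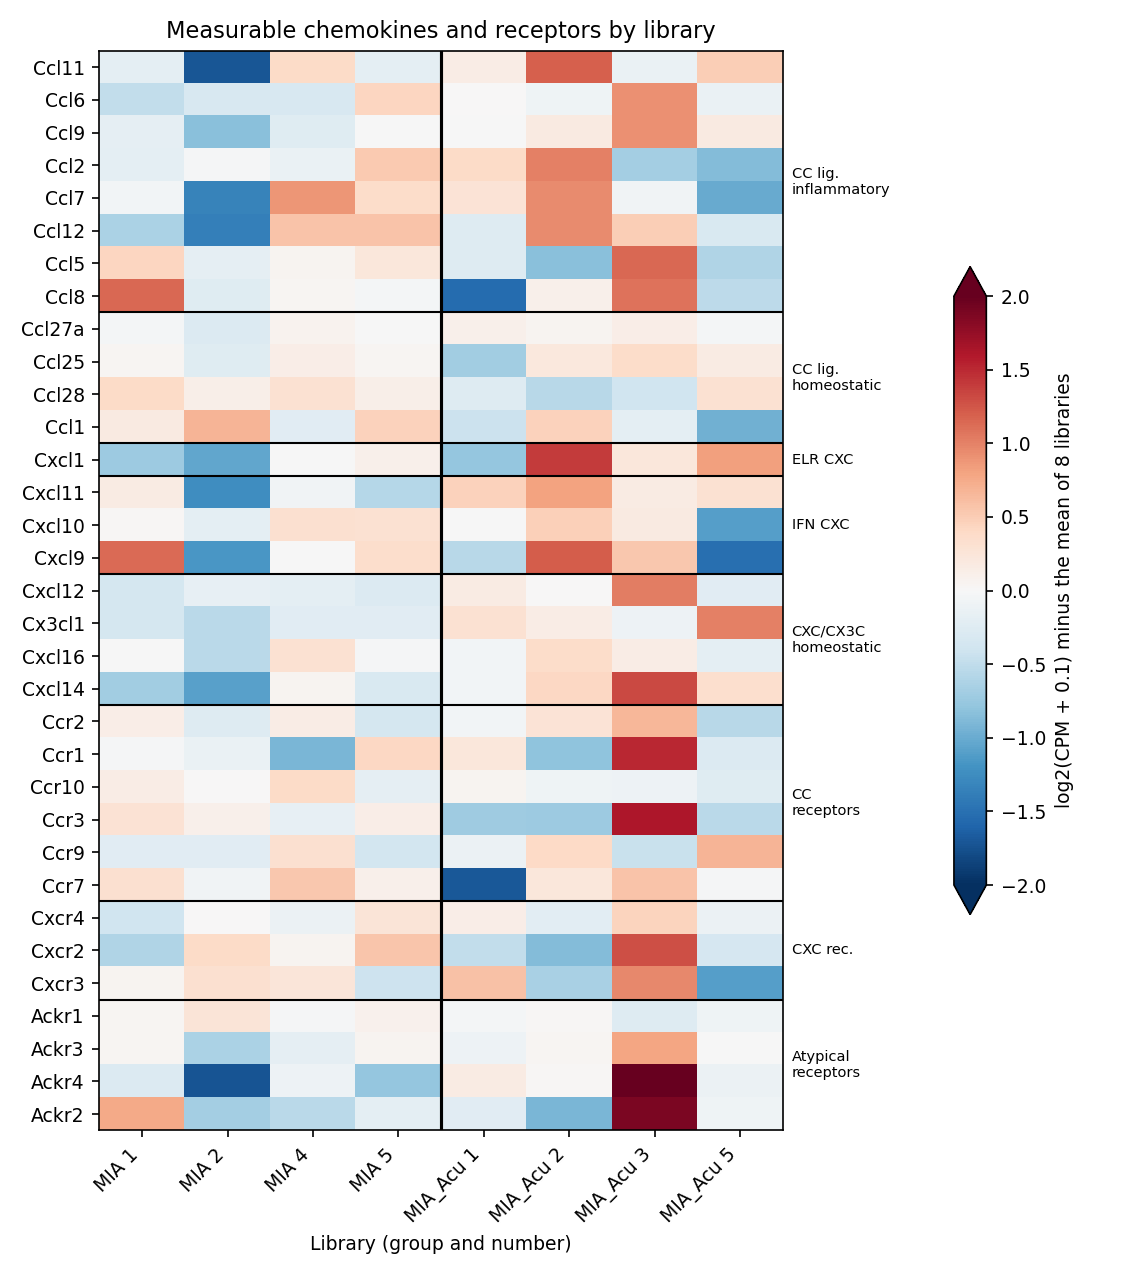
Log2(CPM + 0.1) of 33 of the 34 members in each library, less the mean of the 8 libraries, with members in rows grouped by role and libraries in columns (the vertical line parts MIA from MIA_Acu). Red cells concentrate in the column MIA_Acu 3, which holds the highest value for 17 of the 34 members, and blue cells in MIA 2, which holds the lowest for 13.

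Libraries in which neighbouring genes were high differed from one gene cluster to the next. In the RefSeq order of protein-coding genes (GRCm38.p6), Ccl2, Ccl7, Ccl11, Ccl12, Ccl8 and Ccl1 follow one another. Of these, Ccl2, Ccl7, Ccl11 and Ccl12 were highest of the 8 libraries in MIA_Acu 2, at 3.36, 2.40, 24.9 and 1.57 CPM, and Ccl7, Ccl11 and Ccl12 were lowest of the MIA libraries in MIA 2, at 0.417, 3.21 and 0.235 CPM. Ccl8 was highest in MIA 1 (0.913 CPM) and Ccl1 in MIA 2 (0.731 CPM). A second run, Ccl5, Ccl9, Ccl6, Ccl3 and Ccl4, was highest in MIA_Acu 3 for Ccl5, Ccl9 and Ccl6. So were the counts of Ccl3 (21 of 63), a macrophage ligand below the filter. Ccl4, also below it, had 2 counts in MIA_Acu 3 and 4 in each of MIA 1, MIA 4 and MIA_Acu 2. MIA_Acu 3 was highest for 50% of all tested members. The neighbouring receptor genes Ccr3 and Ccr2 were both highest in MIA_Acu 3. These runs were described after their values were seen.

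Below the filter, 28 rows remained, of which 7 had 50 or more counts in all, 14 had fewer and 7 had none. The former were Ccl22 (87 counts), the second Ccl27a row (80), Ccl24 (77), Cxcr6 (76), Cxcl5 (76), Ccl3 (63) and Cxcr5 (60). Ccl24, an eosinophil ligand, had 4, 4, 9 and 8 counts in the MIA libraries against 14, 14, 14 and 10 in the MIA_Acu libraries. Each MIA_Acu library had more counts than each MIA library, in a row chosen here after its values were seen. Cxcl13, the B cell ligand, had 4, 4, 4 and 0 counts in MIA and none in MIA_Acu. The other rows with fewer than 50 counts were Cxcl2, one Ccl21a row, both Ccl21b rows, Ccl26, Cxcr1, Ccl4, Ccl17, Cxcl17, Ccr4, Ccl27b, Ccr6 and Ccl20, and the rows with none were Cxcl3, Cxcl15, Ccr8, both Ccl19 rows, the third Ccl27a row and the second Ccl21a row. None of these rows entered the tests of all 8 or of the 6 libraries, though the filter let some in when 1 library was left out, and at this depth their levels rest on a few counts.

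Of 65 pathway genes outside the symbol rule, 61 were tested. None passed in 8 libraries (0% of all genes did, and DESeq2 called 12, or 19.7%, against 9.24% of all genes). An unadjusted p under 0.05 was reached by 23 (37.7%, against 21.8%), 16 of them higher (26.2%, against 11.2%) and 7 lower (11.5%, against 10.6%). In the 6 libraries 10 rose (16.4%, against 6.22% of all genes) and 4 fell (6.56%, against 4.14%). Markers of myelinating Schwann cells (10 of 10 rose) and of sensory neurons (8 of 12 fell) also changed in the 6 libraries, and their part in these counts was not tested. Of 35 tested genes of receptor signalling, 4 rose in the 6 libraries (Tiam1, Jak2, Pxn and Rap1a) and 3 fell (Ptk2b, Grk2 and Fgr). Ptk2b, a calcium-dependent kinase that neurons express too, was at 35.3 ± 4.21 CPM among MIA libraries and 23.8 ± 4.21 CPM among MIA_Acu libraries (SD, n = 4, adjusted p = 0.0881). Its log2 fold change in the 6 libraries was -0.76 (SE 0.10, adjusted p = 0.0185). Grk2, the kinase that desensitises chemokine and other receptors, was at 204 ± 18.2 and 168 ± 15.8 CPM (SD, n = 4, adjusted p = 0.139) and fell in the 6 libraries (log2 fold change -0.34, SE 0.09, adjusted p = 0.0476).

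Of 16 genes of ligand processing and presentation, 4 rose in the 6 libraries (Adam10, Adam17, Sdc4 and Tnfaip6), 1 fell (Gpc1) and 11 did not pass. Of all genes, 6.22% rose and 4.14% fell. Tnfaip6, a matrix protein that binds chemokines, was at 3.10 ± 1.75 and 6.16 ± 1.94 CPM (SD, n = 4, adjusted p = 0.211, 6-library log2 fold change 1.59, SE 0.34, adjusted p = 0.0280). Of 10 tested relatives of the family, Cmtm6 and Rarres2, which encodes the attractant chemerin, rose in the 6 libraries (6.22% of all genes did). Pf4, the platelet chemokine, was at 3.46 ± 0.864 and 5.09 ± 2.56 CPM, Cd74 at 58.0 ± 13.4 and 71.5 ± 21.5 CPM, and Mif, a cytokine that binds Cd74 and Cxcr4, at 43.1 ± 5.25 and 40.9 ± 2.53 CPM (SD, n = 4), none past the threshold in 8 or 6 libraries. The calls in the 6 libraries rest on few libraries, since 0 genes of the whole table passed there when MIA_Acu 2 or MIA_Acu 5 was left out. Those libraries had the highest sums of spinal cord glia markers (321 and 367 CPM), and the part of this content in the calls was not tested.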

How the data were processed

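Per the labels' protocols, TRIzol RNA went into NEBNext Ultra poly(A) libraries. Build GRCm39 (mm39) and the tools FastQC and Trimmomatic stand in the submitters' processing notes, with aligner, counter, strand setting and annotation release not given in the sources used here. The authors deposited whole-number counts per Ensembl gene, not normalised. Each of 8 columns took its group from its name, and 6 of them match a sample title. Library totals were 32892804 to 40627041 counts. Intervals and floors cover counting error only.

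Tests used edgeR 4.0.16 (quasi-likelihood test) in R 4.3.3 on all genes kept by filterByExpr (minimum count 10, minimum total 15), with TMM scaling, 1 term for group and p-values adjusted by Benjamini-Hochberg over all tested genes (threshold 0.05). The filter left 18971 genes. CPM uses TMM-scaled library sizes. Levels per kilobase use the union of exons in GENCODE M21 (GRCm38), taken for length only. Promoter windows are RefSeq's. No 2 libraries of the same group agreed within counting noise (smallest chi-square per degree of freedom 19.99). Every member above the filter is a named result, except 1 that enters the counts and medians but is not reported here. Members, gene lists and tests were chosen with earlier results of these data known. Alternatives used limma 3.58.1 and DESeq2 1.42.0. On simulated counts for the 8 libraries, the test recovered 61 of 100 genes changed 2-fold and 92 of 100 changed 4-fold, over 18971 genes. For the 6 libraries it recovered 67 and 85 of 100, over 18941 genes. It also falsely called 6 unchanged genes for the 8 libraries and 21 for the 6. The simulated counts varied independently, without shifts of tissue content shared by the genes of a library. The changed genes were drawn from all tested genes, so these rates need not hold for the members in the real libraries.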

Additional observations from a re-analysis of the deposited data

Results flagged for a closer look

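Of 68 sets of 4 library values (34 members in 2 groups), 10 held a library far from the other 3, where chance flags about 1 in 20 sets. A library was so marked when its gap to the nearest other value, divided by the range of the group, was above Dixon's 95% critical value for 4 values. The rate of 1 in 20 is for independent, normally distributed values, and members of a library can move together. The share over all tested genes was not computed, so the count is no result about the family. In 8 of the 10 sets the library was MIA_Acu 3 and lay highest. The ratios were 0.967 for Ackr4, 0.965 for Ccr3, 0.907 for Ccl6, 0.870 for Ackr3, 0.870 for Cxcr2, 0.869 for Ackr2, 0.844 for Ccl9 and 0.831 for Ccl5. The same library had the highest sums of bone and cartilage (703 CPM), granulocyte (1103 CPM) and erythroid (1030 CPM) markers, and their part in these values was not tested. In the MIA group, Ccl6 was far highest in MIA 5 (0.852), which had that group's highest granulocyte sum (639 CPM), and Ccl8 in MIA 1 (0.868).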

How the results depend on the processing

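In 8 libraries, 12 of 34 members kept the sign of the log2 fold change under all alternatives run, and 22 had another sign under at least 1. Of 513 such member values 448 kept sign and side of the threshold, 4 passed the threshold with the same sign, and 61 changed sign, 29 of them on leaving out 1 library. Where a value moved, the cause was not tested unless stated. The count of genes past the threshold, 0, was 6 with no filter, 1753 with DESeq2, 2249 with voom and sample weights, 1963 in the 6 libraries, 207 with the groups of MIA 4 and MIA_Acu 3 exchanged (as the titles would have them), and 0 to 1340 on leaving out 1 library, the highest without MIA 4. The count of members past it was 2 with DESeq2, 1 with sample weights and 1 in the 6 libraries, and that of pathway genes was 12, 14 and 14, 2 with the exchange and 0 to 9 on leaving out 1 library. Members with an unadjusted p under 0.05 went from 6 to 10 with no filter, which tests more rows (5 to 9 on leaving out 1 library). The median log2 fold change of members, 0.19, was -0.083 with the exchange and -0.0067 to 0.33 on leaving out 1 library, the lowest without MIA_Acu 3.

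In the 6 libraries the count of genes, 1963, was 3267 with DESeq2, 3281 with sample weights and 0 to 2742 on leaving out 1 library (700 without MIA 1, 762 without MIA 2, 984 without MIA 5, 0 without MIA_Acu 2 or MIA_Acu 5). The count of members, 1, was 4 with no filter, 2 with the stricter filter, 3 with DESeq2, 0 with voom, 2 with sample weights (Ccl11 and Cxcl14, not Cx3cl1) and 0 to 2 on leaving out 1 library. Members with an unadjusted p under 0.05, 8, were 9 with no filter and 3 to 8 on leaving out 1 library. Whether the shared numbers 1, 2 and 5 pair the libraries was not settled by the check used. Correlations of deviations were 0.07, 0.28 and 0.15 for same-numbered libraries and ran from -0.26 to 0.16 for the others. MIA 2 and MIA 5 correlated best with the library of their own number, and MIA 1 with MIA_Acu 5. A fit with a replicate block gave 1486 genes, 1 member past the threshold (Cx3cl1, adjusted p = 0.0347) and 6 with an unadjusted p under 0.05.

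Log2 fold changes that changed sign with the exchange were -0.23 for Cxcl12, -0.19 for Cxcr4, -0.12 for Ccr2, -0.21 for Ackr3, -0.38 for Ccl6, -0.94 for Cxcr2, -0.070 for Ccl25, -0.079 for Ccl9, -1.01 for Ccr1, 0.081 for Ccr10, -1.25 for Ackr4, -1.43 for Ccr3, -1.48 for Ackr2 and -0.54 for Cxcr3. In the 6 libraries they were -0.053 for Cxcr4, -0.0034 for Ccl6, -0.76 for Cxcr2, -0.0077 for Ccl25, -0.35 for Ccr1, -1.04 for Ccr3 and -0.59 for Ackr2. With voom they were -0.22 for Cxcr2, -0.12 for Ccl2, -0.25 for Ccr3 and -0.26 for Cxcr3, and with sample weights -0.39 for Cxcr2, -0.15 for Ccr1, -0.14 for Ccl2, -0.028 for Ccl7, -0.56 for Ccr3, -0.17 for Ackr2 and -0.62 for Cxcr3. On leaving out 1 library, values ran from -0.029 to 0.24 for Cxcr4, -0.017 to 0.39 for Ccr2, -0.73 to 0.24 for Cxcr2, -0.055 to 0.26 for Ccl25, -0.024 to 0.25 for Cxcl16, -0.15 to 0.81 for Ccr1, -0.35 to 0.10 for Cxcl10, -0.60 to 0.42 for Cxcl9, -0.38 to 0.33 for Ccl2 and -0.36 to 0.41 for Ccl7. They ran from -0.95 to 0.53 for Ccr3, -0.89 to 0.19 for Ccl5, -0.42 to 1.33 for Ackr2, -1.08 to 0.21 for Ccl8, -0.75 to 0.067 for Ccr7 and -0.41 to 0.50 for Cxcr3. Depth limited the 9 members with a mean under 30 counts and the 28 rows below the filter.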
